A study of Mus musculus with 6 samples.

Results

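The interleukin-6 (IL-6) family genes examined were 5 cytokine genes (Il6, Lif, Osm, Il11 and Ctf1), the shared receptor chain Il6st (gp130) and 4 receptor chains that pair with it (Il6ra, Lifr, Osmr and Il11ra1). They were found by gene name in the count table, which gave 10 of the 54532 genes listed. Of these, 9 had enough counts to be among the 16003 genes tested, and Il11 had not. RNA was taken from eWAT, the epididymal fat pad, of 3 male C57BL/6 mice given LLC cells under the skin (Lewis lung carcinoma, a tumor line of mouse origin) and of 3 C57BL/6 control mice. The labels name no engineered allele for either group. Per the methods, mice were bought at 6 to 10 weeks of age, eWAT was harvested on day 21, and tumor-bearing mice that lost over 20% of their body weight were defined as cachectic. The methods do not say what the control mice received. They also do not say whether each library came from a single mouse, which is assumed here.

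Cytokines of this family act through gp130. IL-6 and IL-11 first bind their own receptor (Il6ra, Il11ra1) and then bring gp130 chains together, whereas leukemia inhibitory factor (Lif) and cardiotrophin 1 (Ctf1) join gp130 to Lifr, and mouse oncostatin M (Osm) joins it to Osmr. The receptor complex activates JAK kinases, which phosphorylate STAT3, and STAT3 induces Socs3, an inhibitor of the same receptor. In adipose tissue, IL-6 and LIF are known to promote lipolysis, and both have been studied as circulating factors in cancer cachexia.

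Total counts were 18475204 to 18855546 in control mice and 14928766 to 17278966 in cachectic mice, so every cachectic library was smaller. Counts were scaled with TMM factors (0.937 to 1.07) and are given as CPM, the count scaled to the same library size in each mouse. When principal components were made from log2 CPM, the groups separated along the leading component (57.6% of the variance), and the next (16.3%) set control replicate 1 (47.2) apart from the other control mice (-28.8 and -23.3). The labelled tissue was checked against 10 adipocyte genes, all of them detected, whose summed level was 28600 to 36600 CPM in control and 32000 to 48000 in cachectic mice. Adipoq, which encodes adiponectin, was at 1900 ± 249 (SD, n = 3) CPM in control and 2760 ± 1290 (SD, n = 3) CPM in cachectic mice. Of the 10 genes, 2 were higher and 1 lower (edgeR adjusted p under 0.05), beside 9.0% and 8.63% of all tested genes. The log2 fold change was positive for 6 of the 10. The lower gene was Lep, which encodes leptin (1020 ± 212 to 116 ± 111 CPM, SD, n = 3), named after its value was seen. Genes of the neighbouring epididymis summed to 5.17, 1.2 and 1.13 CPM in control replicates 1 to 3. In cachexia replicates 1 to 3 they summed to 1.57, 0.676 and 0.852 CPM. Control replicate 1, which the second component set apart, thus had the highest sum.

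The largest fitted changes among the members were in ligand genes and in opposite directions, so the 250 bases upstream of the RefSeq start sites of Il6 and Lif are shown (GRCm38.p6, 5′ to 3′ on the strand of the gene). Capitals mark matches, on either strand, to 4 motifs searched: TTCNNNGAA (STAT), TGANTCA (AP-1), GGGNNTTTC (NF-kappaB) and TTNNGNAAT (C/EBP). The Il6 window is chr5:30012864-30013113 (+ strand) and the Lif window is chr11:4257318-4257567 (+ strand).
Il6: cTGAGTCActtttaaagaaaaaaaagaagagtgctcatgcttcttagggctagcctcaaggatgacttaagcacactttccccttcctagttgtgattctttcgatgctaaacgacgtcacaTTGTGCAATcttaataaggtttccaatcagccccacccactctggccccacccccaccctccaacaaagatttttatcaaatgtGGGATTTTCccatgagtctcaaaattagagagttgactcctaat
Lif: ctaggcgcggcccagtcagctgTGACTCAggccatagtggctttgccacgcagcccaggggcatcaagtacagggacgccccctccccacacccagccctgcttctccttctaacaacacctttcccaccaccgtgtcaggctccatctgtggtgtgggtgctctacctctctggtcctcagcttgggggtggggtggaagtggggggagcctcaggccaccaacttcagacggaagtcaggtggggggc
The Il6 window held an AP-1 match 249 bases upstream, a C/EBP match 128 bases upstream and an NF-kappaB match 44 bases upstream of the start, none overlapping another. The Lif window held an AP-1 match 228 bases upstream. Promoters of 300 bases, 250 before and 50 after the start, were given by RefSeq for 9 of the 10 members (12 promoters, Osm without an entry). In these, AP-1 letters were also found for Osmr and for 1 of the Il11 promoters, no other motif match was found, and the STAT letters were in none of the 12. Over all 32851 mouse promoters of this length, 8.3% held the STAT letters, 7.81% AP-1, 4.36% NF-kappaB and 11.5% C/EBP. These matches describe letters in a window and do not show binding.

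The receptor genes Il6ra and Il6st rose in the eWAT of cachectic mice (2.33-fold and 1.65-fold), and Lif and Il11ra1 fell, Lif to a 6.49-fold lower level. Il6 had the largest fitted rise, 7.56-fold, but it did not pass the test. Of the 9 tested members, 2 were higher and 2 lower when p was adjusted over all 16003 genes by Benjamini-Hochberg (quasi-likelihood test of edgeR, threshold 0.05), beside 9.0% of all tested genes higher and 8.63% lower. The median log2 fold change of the 9 was 0.72, beside 0 over all tested genes. The values of the groups did not overlap for Il6, Il6ra, Il6st and Lifr, all higher in cachectic mice, and for Lif and Il11ra1, both lower, beside 20.4% and 20.1% of all tested genes. For each of these 6 genes a two-sided exact permutation test gave p = 0.1, the smallest value that 3 mice against 3 allow. These counts depended on single mice. Without control replicate 3 none of the members was called higher and 1 was called lower, while 828 genes were called in all (2821 with all 6 mice). Because whole tissue was sequenced, fewer cells of a type and less RNA per cell cannot be told apart.

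**Figure D1:**
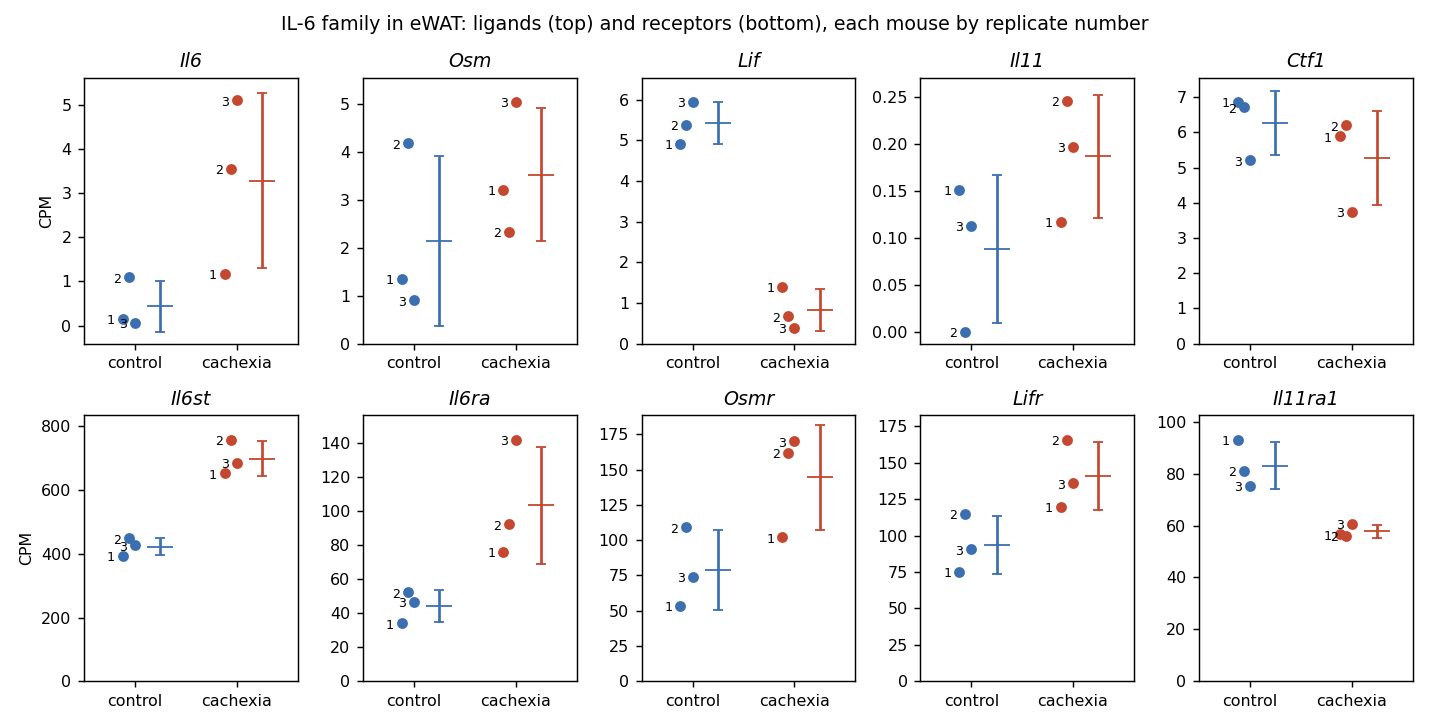
Level of each of the 10 genes in CPM (y axis, linear, its own scale per gene) in the 3 control mice (blue) and 3 cachectic mice (red), with the replicate number beside each point and the mean with its SD at the right of each group. The 3 cachectic mice lie above all control mice for Il6, Il6ra, Il6st and Lifr and below them for Lif and Il11ra1.

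Per length of gene, the levels spanned a wide range. On the scale of the deposited FPKM, control mice expressed Il6st most (37.6 ± 2.3, SD, n = 3), followed by Il11ra1 (18.4 ± 2.04, SD, n = 3). Then came Lifr (8.57 ± 1.82), Osmr (6.42 ± 2.27) and Il6ra (5.07 ± 1.06), each overlapping its neighbour in this order. Ligands were lower, with Ctf1 at 3.39 ± 0.495, Lif at 1.23 ± 0.117, Osm at 0.933 ± 0.769, Il6 at 0.175 ± 0.231 and Il11 at 0.0432 ± 0.0385 FPKM (SD, n = 3). From Lif down to Il11 each overlapped its neighbour. In cachectic mice Il6st stayed highest (61.5 ± 4.65 FPKM), and Lifr (12.8 ± 2.08), Il11ra1 (12.6 ± 0.548), Osmr (11.7 ± 3) and Il6ra (11.7 ± 3.83) all overlapped. Il11ra1 thus no longer stood above the other chains that pair with gp130. The ligands also changed order. Lif was above Il6 in every control mouse (1.12 to 1.35 against 0.0231 to 0.442 FPKM) and below it in every cachectic mouse (0.0882 to 0.315 against 0.471 to 2.05 FPKM). Among the genes tested, Il6st lay at the 92.3rd percentile of mean FPKM in control and at the 95.5th in cachectic mice, Il6 at 2.81 and 25.7, and Lif at 23.9 and 4.59.

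Lif encodes leukemia inhibitory factor and lies on chromosome 11 (4257557 to 4272514, + strand). Its raw counts were 98, 94 and 105 in control replicates 1 to 3 and 24, 11 and 6 in cachexia replicates 1 to 3. These correspond to 4.92, 5.39 and 5.95 CPM in control mice and 1.4, 0.676 and 0.393 CPM in cachectic mice. The control mice were close together, and the highest cachectic mouse was far below the lowest control mouse. Lif fell by 2.7 on the log2 scale (standard error 0.47, 95% interval -3.78 to -1.62, edgeR adjusted p = 0.00947). It was called lower in all 14 settings that gave it a value, each sample left out included. Without cachexia replicate 1, the cachectic mouse with the most Lif, the log2 fold change was -3.32.

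Il6 lies on chromosome 5 (30013114 to 30019981, + strand) and encodes the cytokine IL-6. Its raw counts were 3, 19 and 1 in control replicates 1 to 3 and 20, 58 and 78 in cachexia replicates 1 to 3, or 0.151, 1.09 and 0.0567 CPM against 1.17, 3.56 and 5.11 CPM. Every cachectic mouse was above every control mouse, but control replicate 2 and cachexia replicate 1 were almost equal. The log2 fold change was 2.92 (standard error 0.94, 95% interval 0.74 to 5.1), which did not pass the threshold (edgeR adjusted p = 0.0692). Without control replicate 2 it was 4.86 and passed (edgeR adjusted p = 0.0303), and DESeq2 also called it with all 6 mice (adjusted p = 0.00979). Over the 14 other settings that gave Il6 a value, the adjusted p ranged from 0.00979 to 0.17. With 1 to 19 counts in the control mice, counting error is a large part of each control value.

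Osm encodes oncostatin M, a cytokine made largely by myeloid cells, and lies next to Lif on chromosome 11 (4236420 to 4241026, + strand) with a gap of 16.5 kb and no gene between them. Its levels were 1.35, 4.18 and 0.907 CPM in control and 3.21, 2.33 and 5.05 CPM in cachectic mice. The groups overlapped, since control replicate 2 was above 2 of the 3 cachectic mice. The log2 fold change was 0.72 (95% interval -0.66 to 2.1, edgeR adjusted p = 0.437; exact permutation test p = 0.3). Single mice moved this value, which was 1.63 without control replicate 2 (edgeR adjusted p = 0.0951), 0.35 without control replicate 3, 0.47 without control replicate 1 and 0.37 without cachexia replicate 3, with none of them called. Lif and Osm, although neighbours, therefore had fitted values of opposite sign, and the interval of Osm includes both directions.

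Ctf1, which encodes cardiotrophin 1, is on chromosome 7 (127712736 to 127718192, + strand). It was measured at 6.87, 6.71 and 5.21 CPM in control and 5.89, 6.2 and 3.74 CPM in cachectic mice. The groups overlapped, with a log2 fold change of -0.25 (95% interval -0.9 to 0.4, edgeR adjusted p = 0.58). Il11 (chromosome 7, 4772373 to 4782857, - strand), the gene of a cytokine studied in fibrosis, had 3, 0 and 2 counts in control and 2, 4 and 3 counts in cachectic mice. At these counts no difference in Il11 was detectable, and no fold change is given. 

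Il6st, the gp130 chain that all of these cytokines share, is on chromosome 13 (112464070 to 112510086, + strand). It was at 394, 448 and 426 CPM in control and 652, 758 and 685 CPM in cachectic mice, tight within each group and clearly apart between them. The log2 fold change was 0.72 (standard error 0.16, 95% interval 0.36 to 1.09, edgeR adjusted p = 0.0201). The call was lost without control replicate 2 (log2 fold change 0.77, edgeR adjusted p = 0.0698) and without control replicate 3 (0.73, edgeR adjusted p = 0.0979), although the size of the difference hardly moved. Over the 15 other settings the adjusted p of Il6st ranged from 2.2e-06 to 0.0979.

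Il6ra encodes the receptor chain that binds IL-6 and lies on chromosome 3 (89864059 to 89913196, - strand). It was at 34.1, 52.4 and 46.7 CPM in control and 76.2, 92.2 and 142 CPM in cachectic mice. Cachexia replicate 3, which also had the most Il6, had the highest Il6ra. The log2 fold change was 1.22 (standard error 0.26, 95% interval 0.62 to 1.81, edgeR adjusted p = 0.0188). Only leaving out control replicate 3 ended the call among the 15 other settings (log2 fold change 1.25, edgeR adjusted p = 0.071, range over these settings 0.000185 to 0.071). An antisense gene at the locus, Gm42809, had a mean of 12.3 counts against 1230 for Il6ra.

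Lifr and Osmr, the chains that pair with gp130 in the receptors of LIF and oncostatin M, lie 216 kb apart on chromosome 15 (7090614 to 7197489, + strand, and 6813577 to 6874969, - strand). Lifr was at 75.2, 115 and 90.6 CPM in control and 120, 166 and 136 CPM in cachectic mice. Osmr was at 53.4, 109 and 74.1 CPM in control and 102, 162 and 170 CPM in cachectic mice. The 2 genes ranked the control mice in the same order, with replicate 2 highest and replicate 1 lowest, and both were lowest in replicate 1 among the cachectic mice. The groups did not overlap for Lifr, whereas cachexia replicate 1 lay below control replicate 2 for Osmr. The log2 fold change of Lifr was 0.59 (95% interval 0.14 to 1.04, edgeR adjusted p = 0.0744) and that of Osmr was 0.88 (95% interval 0.2 to 1.55, edgeR adjusted p = 0.0751). Neither passed in the main analysis. Each was called higher in 3 of the 15 other settings, among them edgeR with library totals (adjusted p = 0.0468 for Lifr and 0.0495 for Osmr) and DESeq2 (0.0347 and 0.0212). Over these settings the adjusted p ranged from 0.0347 to 0.211 for Lifr and from 0.0212 to 0.205 for Osmr.

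Il11ra1, the private chain of the IL-11 receptor, was the only receptor gene of the 5 with a negative log2 fold change. It is on chromosome 4 (41699989 to 41769474, + strand) and was at 93.1, 81 and 75.2 CPM in control and 56.6, 56 and 60.7 CPM in cachectic mice. All cachectic mice were below all control mice. It fell by 0.52 on the log2 scale (standard error 0.13, 95% interval -0.82 to -0.23, edgeR adjusted p = 0.0278). The call was lost when any of control replicates 1, 2 and 3 or cachexia replicates 1 and 2 was left out (log2 fold changes -0.44, -0.54, -0.6, -0.51 and -0.5, with edgeR adjusted p = 0.0654, 0.0815, 0.0696, 0.0769 and 0.0678). Over the 15 other settings the adjusted p ranged from 0.00495 to 0.0815. The span of the gene in the deposited table overlaps genes on both strands, among them Dctn3 on the other strand (mean 1940 counts) and Galt on the same strand (273), beside 1230 counts for Il11ra1. Because the sources do not say whether strand was used in counting, reads of these genes cannot be told apart from its own with certainty. The near-identical copies named Il11ra2 had 10 counts over all samples.

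**Figure D2:**
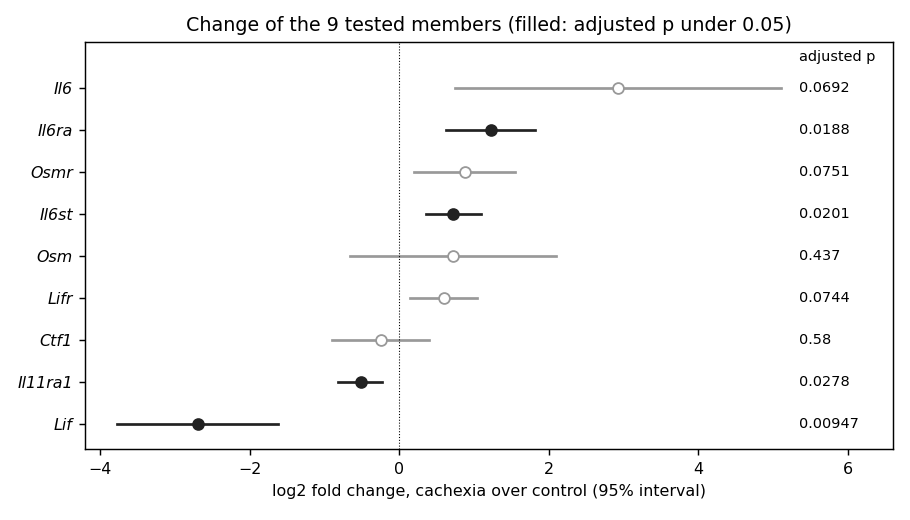
Log2 fold change of cachectic over control mice (x axis) for the 9 tested members, with 95% intervals as lines and the adjusted p of edgeR's test at the right, filled points being those under 0.05. Il6 has the highest value (2.92) and the widest interval, Il6ra and Il6st are filled on the right, and Il11ra1 and Lif are filled on the left.

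The receptor genes were then compared with Il6st within each mouse, to see whether the chains that pair with gp130 moved together with it. The log2 ratio of Il11ra1 to Il6st was -2.34 ± 0.23 (SD, n = 3) in control and -3.58 ± 0.14 (SD, n = 3) in cachectic mice, a difference of -1.24. Its ranges, -2.49 to -2.08 and -3.75 to -3.49, did not overlap (exact permutation test p = 0.1, 0.4 after Benjamini-Hochberg adjustment over 4 ratios). The ratio of Il6ra to Il6st was -3.26 ± 0.23 and -2.8 ± 0.46 (SD, n = 3), a difference of 0.46 (exact permutation test p = 0.2, adjusted 0.4). The ratio of Lifr to Il6st differed by -0.13 (exact permutation test p = 0.5, adjusted 0.6) and that of Osmr by 0.17 (exact permutation test p = 0.6, adjusted 0.6). For these 3 chains the groups overlapped, and the sign for Osmr turned to -0.02 without control replicate 1. With 3 mice in each group this test cannot pass 0.05 for any ratio.

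**Figure D3:**
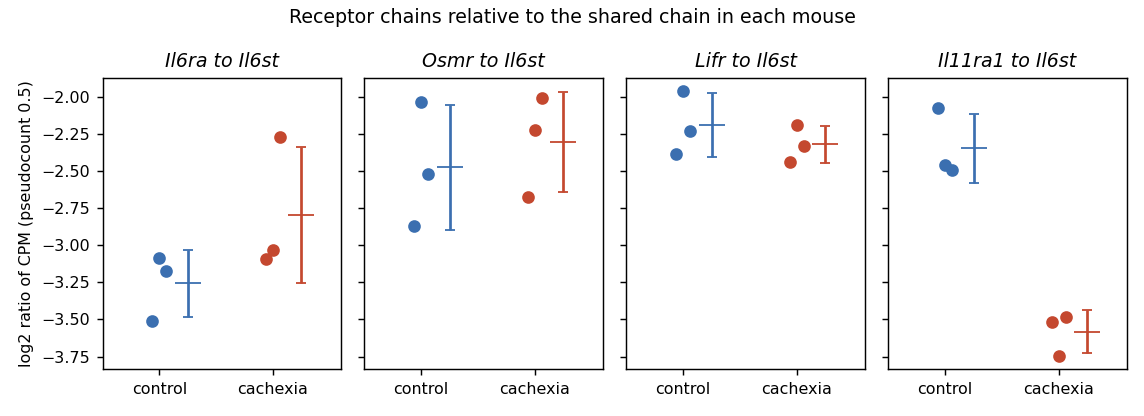
Log2 ratio of the CPM (pseudocount 0.5) of Il6ra, Osmr, Lifr and Il11ra1 to that of Il6st in the same mouse (y axis), in control (blue) and cachectic (red) mice, with the mean and SD beside the points. For Il11ra1 the cachectic mice (-3.75 to -3.49) lie below the control mice (-2.49 to -2.08), and for the other chains the groups overlap.

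Other genes of the family did not pass the test. Of 11 such genes, 6 were tested and 0 were called by edgeR, with 2 at an unadjusted p under 0.05, and DESeq2 and limma-voom also called 0. Clcf1, a cytokine gene of the family named here after its value was seen, was at 4.85 ± 0.84 in control and 7.51 ± 1.07 CPM (SD, n = 3) in cachectic mice (edgeR adjusted p = 0.117). Among 4 genes for the proteases that release soluble receptors and their cofactors, Rhbdf1 fell by 0.94 on the log2 scale (standard error 0.15, edgeR adjusted p = 0.0076). Rhbdf1 encodes iRhom1, a cofactor of the protease ADAM17, and was at 83.5, 81.2 and 69.2 CPM in control and 46.8, 40.2 and 34.5 CPM in cachectic mice. Adam10, Adam17 and Rhbdf2 were not called, with log2 fold changes of 0.26, -0.09 and 0.12. This is 1 of 4 called, beside 17.6% of all tested genes in either direction.

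Downstream of the receptors, Stat3 and Socs3 rose. Of 13 signal transducer genes, all tested, Stat3 was called higher and the other 12 were not called, and the median log2 fold change of the 13 was -0.1. Stat3, the main transcription factor of this pathway, was at 157, 202 and 182 CPM in control and 289, 359 and 482 CPM in cachectic mice, or 2.09-fold higher (log2 fold change 1.06, SE 0.22, edgeR adjusted p = 0.0162). As for Il6 and Il6ra, cachexia replicate 3 was the highest. Of 9 feedback genes, all tested, Socs3 was called higher and the other 8 were not called, and the median log2 fold change of the 9 was 0. Both lists, with 1 of 13 and 1 of 9 called, were below the 17.6% of all tested genes called in either direction. Socs3 was at 47.8, 67.2 and 41.3 CPM in control and 109, 134 and 93.6 CPM in cachectic mice, or 2.15-fold higher (log2 fold change 1.1, SE 0.22, edgeR adjusted p = 0.0141). Without control replicate 3 neither Stat3 (log2 fold change 1.06, edgeR adjusted p = 0.0745) nor Socs3 (0.96, edgeR adjusted p = 0.0651) passed, and these were the highest adjusted p of each over the 15 other settings.

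Genes known as STAT3 targets moved in both directions. Of 24, all tested, 6 were higher and 2 lower, with a median log2 fold change of 0.51 and 18 positive values. This is 8 of 24 beside 17.6% of all tested genes called in either direction. The list was chosen with earlier results of these data known, so this share describes the list and is no test of it. Socs3, already counted among the feedback genes, is also among these 8. Il4ra, the alpha chain of the IL-4 receptor, was at 63.9, 71 and 59.4 CPM in control and 194, 242 and 251 CPM in cachectic mice (log2 fold change 1.82, edgeR adjusted p = 0.00118). Cebpd, a transcription factor of the C/EBP family, was at 52, 55.7 and 47.3 CPM and rose to 137, 175 and 366 CPM (log2 fold change 2.13, edgeR adjusted p = 0.00807). Icam1, an adhesion molecule for leukocytes, rose by a log2 fold change of 1.35 (edgeR adjusted p = 0.00999), and with Socs3 these were the 4 higher genes with the smallest p. Pim1, a kinase, and Ier3, an early stress response gene, were the other 2 called higher (log2 fold changes 1.12 and 0.94). Both were named after their values were seen, and their calls in the other settings are not given. Ccl2, a chemokine for monocytes, fell from 17.1, 29.8 and 14.8 CPM to 6.47, 6.63 and 4.72 CPM (log2 fold change -1.79, edgeR adjusted p = 0.00872). Bcl6, a transcriptional repressor, fell from 100 ± 27.5 to 24.5 ± 16.5 CPM (SD, n = 3; log2 fold change -2.04, edgeR adjusted p = 0.0197). The call of Bcl6 was lost without control replicate 2, control replicate 3 or cachexia replicate 1 (log2 fold changes -1.8, -2.11 and -1.81, edgeR adjusted p = 0.0627, 0.0588 and 0.0603). Without cachexia replicate 3, the cachectic mouse with the most Bcl6, the log2 fold change was -2.74 (edgeR adjusted p = 0.00482). Without control replicate 3 only 4 of the 24 were called. In the main analysis 16 were not called, among them Lcn2, Hp, Lrg1, Saa3 and Serpina3n, named after their values were seen. Their edgeR adjusted p were 0.871, 0.621, 0.893, 0.109 and 0.164. Lcn2 was at 148, 8.2 and 9.8 CPM in control and 18.3, 81.6 and 105 CPM in cachectic mice. Control replicate 1 thus had the most Lcn2, and every cachectic mouse was above control replicates 2 and 3. Saa3 was at 1.61, 5.33 and 6.18 CPM in control and 2.16, 149 and 8.72 CPM in cachectic mice, so cachexia replicate 2 carried most of its rise. For Hp and Serpina3n, cachexia replicate 1 (1450 and 181 CPM) was below every control mouse and the other cachectic mice were above every control mouse.

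Of 11 genes listed around the induction of Il6, 9 were tested, with Cxcl2 called higher and the other 8 not called (median log2 fold change 0.27). This is 1 of 9, below the 17.6% of all tested genes called in either direction. The list mixes inducers of Il6 and their receptors with the NF-kappaB genes Nfkb1 and Rela and the chemokine genes Cxcl1 and Cxcl2. No inducer or inducer receptor was called. Cxcl2, a chemokine for neutrophils, was at 3.91, 6.02 and 4.53 CPM in control and 8.98, 8.05 and 10.4 CPM in cachectic mice (log2 fold change 0.92, edgeR adjusted p = 0.0415). The call of Cxcl2 was lost whenever a mouse was left out, with log2 fold changes between 0.79 and 1.11 and a highest adjusted p of 0.145 by edgeR. Il1b and Tnf, which encode classical inducers of IL-6 and were named after their values were seen, were not called. Il1b was at 0.903, 4.59 and 1.3 CPM in control and 10.6, 9.21 and 3.87 CPM in cachectic mice (edgeR adjusted p = 0.0926), and Tnf was at 1.24 ± 0.412 and 0.567 ± 0.361 CPM (SD, n = 3; edgeR adjusted p = 0.183).

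**Figure D4:**
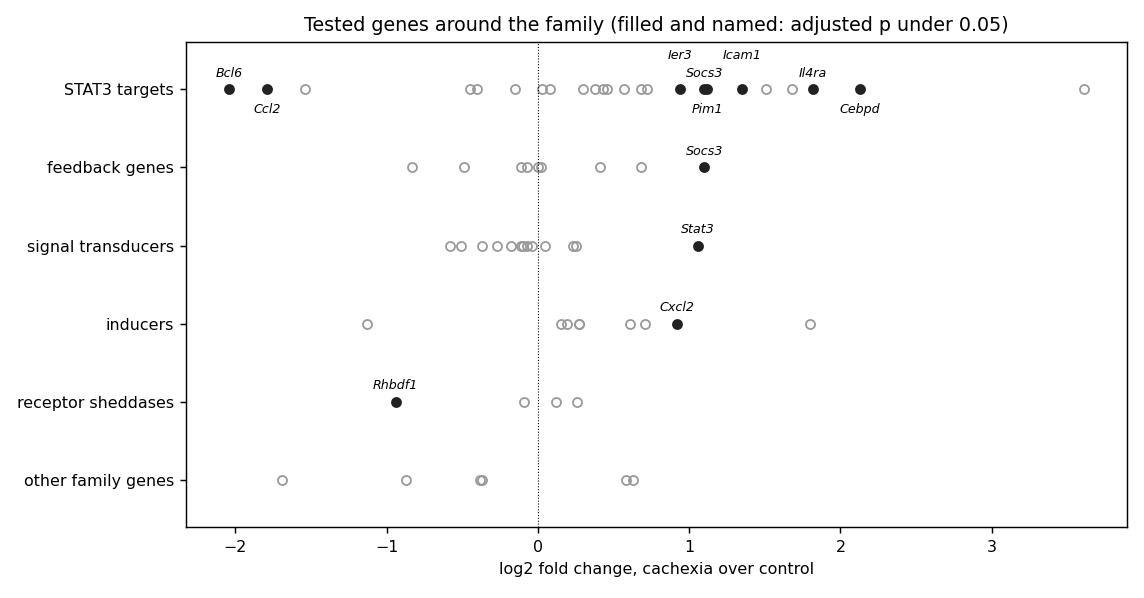
Log2 fold change of cachectic over control mice (x axis) for the tested genes of 6 lists around the family (rows), each point a gene, filled and named where edgeR's adjusted p is under 0.05. The STAT3 target row holds 6 filled points on the right and 2 on the left, and the rows of transducers, feedback genes, inducers and sheddases hold 1 each. The filled point of the row labelled inducers is Cxcl2, a chemokine gene.

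Markers of several cell types moved with the groups. Calls in these lists stand beside 9.0% of all tested genes called higher and 8.63% called lower. Of 12 neutrophil genes, 9 of the 10 tested were higher, and their summed level was 33.4 to 50.6 CPM in control and 265 to 758 CPM in cachectic mice. Of these, Ly6g was at 0 in all control mice. Cachexia replicate 3, the mouse with the most Il6, Il6ra and Osm, was also the highest in neutrophil genes. Cachexia replicates 1 and 2 (290 and 265 CPM) ranked in that order for Osm too, but in the opposite order for Il6 and Il6ra. Of 10 endothelial genes, 4 were higher and the others were not called (1650 to 1750 against 2560 to 3840 CPM), with cachexia replicate 2, which had the most Il6st and Lifr, the highest. Cachexia replicate 3 was the lowest of the cachectic mice in endothelial genes, whereas cachexia replicate 1 was the lowest for Il6st and Lifr. Of 10 genes of fat progenitors, 1 was higher and 3 lower, and their sum was 5400 to 6130 CPM in control and 2560 to 3530 CPM in cachectic mice. Most of this difference lay in the collagen genes Col3a1 (2470 ± 309 to 272 ± 115 CPM, SD, n = 3) and Col1a1 (632 ± 267 to 104 ± 36.6 CPM, SD, n = 3), both named after their values were seen. Without them, a sum added after seeing the data, the other 8 genes were at 2540 to 2860 CPM in control and 2190 to 3000 CPM in cachectic mice and overlapped. T cell genes were low, with 1 of 7 tested lower and sums of 11.5 to 19.4 CPM in control and 7.06 to 8.54 CPM in cachectic mice. Of 6 mast cell genes tested, 3 were lower, but the sums overlapped (59.6 to 103 against 37.5 to 87.3 CPM), as did those of mesothelial genes (344 to 482 against 218 to 478 CPM). Of 8 smooth muscle genes, 1 was lower (959 to 1300 against 500 to 804 CPM), and of 7 red blood cell genes all 6 tested were higher (252 to 451 against 1330 to 2860 CPM). Macrophage genes summed to 938 to 1170 CPM in control and 840 to 1220 CPM in cachectic mice, with 2 of 10 higher and 1 lower. The part of these cell types in the changes of the IL-6 family was not tested.

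Within the groups, some pairs of members varied together from mouse to mouse, and others did not. After the group means were removed from log2 CPM, the deviations of Il6st and Lifr had r = 0.97 over the 6 mice. Those of Lifr and Osmr had r = 0.9 and those of Il6 and Osmr r = 0.88. These were the highest values among all pairs of tested members. Other pairs went opposite ways, such as Il6ra and Ctf1 (r = -0.75) and Il6 and Lif (r = -0.74). For Il11ra1 and Ctf1 r was only 0.04. These values describe 6 libraries and are given with no test. Among 13723 protein-coding genes, those most like Lif over the 6 mice by Pearson's r of log2 CPM were Amph (0.998), Gfra2 (0.9975) and Ppp1r16a (0.9973). Those most like Il6st were Cd38 (0.9961), Apold1 (0.9954) and Dmac2 (0.9952). For Il6ra they were Ifrd1 (0.9972), Tfb2m (0.9945) and Ttf1 (0.9942). All of these values include the difference between the groups, and 249 to 516 genes had r over 0.95 with each of these 3 members.

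The choice of normalization, filter, tool or mice changed which members were called but not their direction, as shown for each setting in the plot of calls.

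**Figure D5:**
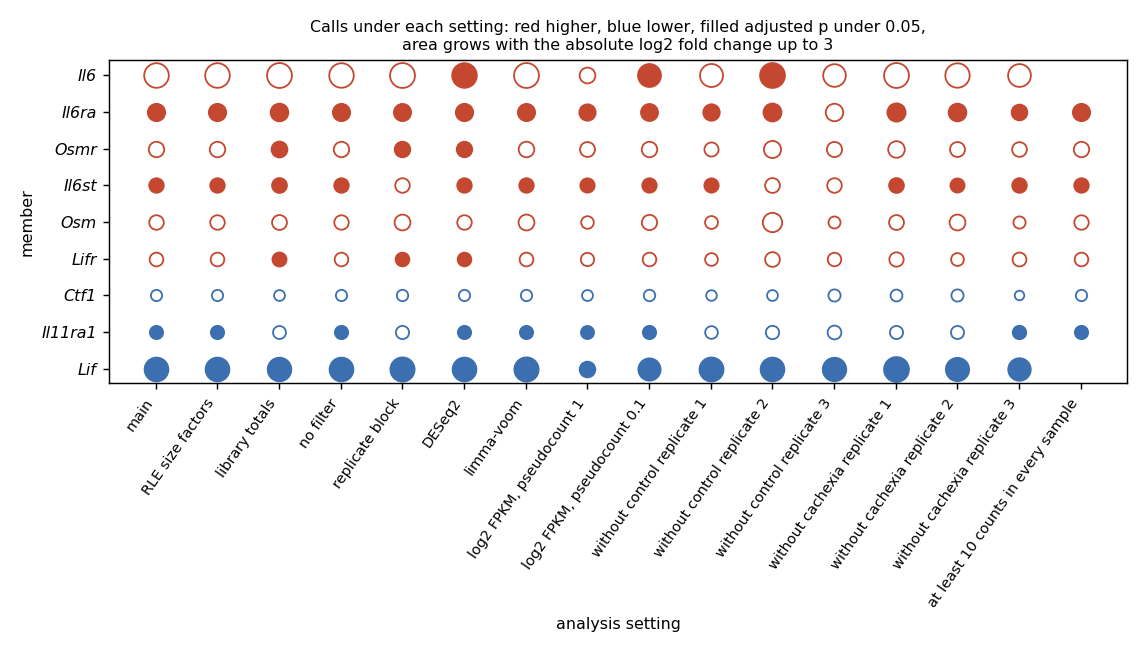
Calls for the 9 tested members (rows) under the main analysis and 15 other settings (columns), red for higher and blue for lower in cachectic mice, filled where the adjusted p is under 0.05, with the area growing with the absolute log2 fold change. Lif is filled in every setting that gave it a value, Il6ra in all but 1, and no member changes color.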

How the data were processed

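RNA-seq of eWAT from 3 cachectic and 3 control mice was analyzed, grouped by the sample titles. Per the methods, the authors cleaned the paired-end reads of adapter, poly-N and low quality, mapped them with Hisat2 and made gene counts with FeatureCounts (1.5.0-p3 in the submitters' processing notes). The authors deposited raw counts without normalization. The deposited FPKM values were calculated by the authors from counts and gene length and were used for levels between genes. A deposited table of log2 fold changes and p-values from the authors' DESeq2 1.16.1 was not used. The processing notes name mm9, but of 54495 gene identifiers found in GENCODE M21 (GRCm38), 98.3% have the same coordinates, those of 9 of the 10 members included. Il11 differs. Coordinates are as deposited.

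The test was made with edgeR 4.0.16 under R 4.3.3 (filterByExpr, TMM, quasi-likelihood test without covariates, Benjamini-Hochberg over 16003 genes, threshold 0.05). The biological coefficient of variation was 0.264. Log2 CPM used a pseudocount of 0.5, and exact permutation tests were two-sided. Other settings were RLE factors, library totals, no filter, at least 10 counts in every sample, DESeq2 1.42.0, a replicate block, limma-voom from limma 3.58.1, limma on log2 FPKM (pseudocount 1 or 0.1) and each sample left out. The ratios to Il6st were also made with a pseudocount of 0.1 and from FPKM. The scripts were tested on simulated data. The members and gene lists were chosen with earlier results of these data known. Named genes are all members, up to 4 called genes with the smallest p in each direction of each pathway list, the 3 protein-coding genes most like each called member, and up to 2 defining genes of a marker list, and a few of the genes so chosen are not reported here. The methods do not say whether libraries came from separate cages or days, so p-values measure the spread between these 6 samples. No pair of samples had near-identical counts. Promoters are from RefSeq.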

Additional observations from a re-analysis of the deposited data

How the results depend on the processing

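All 9 tested members kept their direction in every setting that gave them a value. Lif was called in all 14 such settings, Il6ra in 14 of 15, Il6st in 12 of 15 and Il11ra1 in 8 of 15, while Il6 passed in 3 of 14, Lifr and Osmr in 3 of 15 each, and Osm and Ctf1 in 0 of 15. Il6 and Lif could not be fitted with at least 10 counts in every sample, which leaves them out. The number of members called higher, 2 in the main analysis, was 4 with library totals and 5 with DESeq2, and 0 to 2 when a mouse was left out. The number called lower, also 2, was 1 with library totals, with at least 10 counts in every sample and with the replicate block, and 1 to 2 when a mouse was left out. Leaving out a mouse gave 0 to 1 other family genes, 0 to 2 transducers, 0 to 2 feedback genes, 4 to 9 STAT3 targets and 0 to 1 genes of the inducer list. DESeq2 called 13 STAT3 targets and 2 genes of the inducer list. Calls in the inducer list fell to 0 without the filter and with the replicate block. The difference of the Osmr to Il6st ratio (0.17) reversed to -0.02 without control replicate 1 and was at most 0.39, without control replicate 2, when a mouse was left out. The cause of these shifts was not tested, except that leaving out a mouse or filtering more leaves fewer samples or genes. With a pseudocount of 1 on the FPKM scale the log2 fold changes of Il6 and Lif shrank to 0.93 and -0.92, because both genes lie near that pseudocount. Over all genes, 2821 were called in the main analysis, 3884 with DESeq2, 1881 with the replicate block, and 828 without control replicate 3 to 2339 without cachexia replicate 3. Another scaling moved the median log2 fold change of all genes to at most 0.05.

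Replicate numbers come from the titles, and a control and a cachectic sample of the same number are from different mice. Deviations from the group means of same-numbered mice had correlations of 0, -0.01 and 0.01, which showed no pairing by number. The sources state no pairing either, and so few mice cannot exclude a shared cage, day or batch. With the replicate block Il6st (edgeR adjusted p = 0.0576) and Il11ra1 (0.0678) were no longer called, and Lifr (0.0447) and Osmr (0.0277) were. Depth limits Il6, Lif, Osm and Il11 most, since each had a mouse with 16 or fewer counts.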
